A study of Mus musculus with 9 samples.

Results

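The whole-testis profiles of TDP-43 cKO mice were compared with those of control mice, with every UMI of every barcode in the deposited matrix summed per mouse and no choice of cells. These were 7 of the 9 mice of the series, 4 control mice and 3 TDP-43 cKO mice, and the other 2 mice were NELF-B cKO. All were males at post-natal day 24 (PND24), labelled C57BL/6 and backcrossed to C57BL/6 J, with 1 10x Genomics 3′ library per mouse from the dissociated testis, whose tubules were minced and washed before digestion. In the TDP-43 cKO mice, 1 Tardbp allele carried loxP sites around exon 3, the other allele was null, and Stra8-iCre was present. Stra8-iCre is a recombinase driven by a Stra8 promoter that is active in male germ cells from the spermatogonium onwards, so the somatic cells of the testis keep the floxed allele beside the null allele. The control mice were littermates and non-littermates, and the labels give no alleles for them. No cell was left out for its Tardbp UMIs, so germ cells in which the allele was not recombined are in the sums as well.

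TDP-43, the protein of Tardbp, binds RNA and DNA with a preference for stretches of alternating T (or U) and G, and acts in transcription, splicing and RNA stability. Spermatogenesis runs from spermatogonia (SG) through spermatocytes (SC), which enter meiosis at preleptotene (pL), then pass through leptotene (L), zygotene (Z), a long pachytene (P) and a final diplotene (D), and divide into haploid round spermatids (RS). Sertoli cells nurse the germ cells in the tubule, peritubular myoid cells surround it, and Leydig cells, stromal cells, vessels and macrophages lie between the tubules. A gene that is read in a single stage therefore reports on that stage in a profile of the whole testis. In sums of this kind, fewer cells of a type and less RNA per cell cannot be told apart.

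The deleted exon 3 of transcript Tardbp-202 (mm10, chr4:148621949-148622112, minus strand, within the gene at chr4:148612382-148627019, minus strand) is 164 bases long and coding throughout, and a length of 164 bases leaves a remainder of 2 when divided by 3. Its sequence is shown because it is the part that Stra8-iCre removes:
Tardbp-202 exon 3: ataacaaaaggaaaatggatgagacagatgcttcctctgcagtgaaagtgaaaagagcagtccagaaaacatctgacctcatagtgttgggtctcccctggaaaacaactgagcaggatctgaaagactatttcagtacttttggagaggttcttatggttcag
The 3′ libraries read mainly the other end of a transcript, and exon 6, the last exon, lies outside the deleted part, so a Tardbp UMI does not show whether exon 3 was present. Tardbp had 115, 113, 128 and 127 CPM in control replicates 1 to 4 and 49.3, 73.8 and 64.0 CPM in TDP-43 cKO replicates 1 to 3, where CPM are UMIs per 1000000 UMIs of the tested genes after TMM scaling. No TDP-43 cKO mouse reached the lowest control mouse. The log2 fold change was -0.96 (SE 0.16, edgeR, adjusted p = 0.00357), and the mean of the TDP-43 cKO mice was 51.6% of the control mean with TMM. This fall is over all cell types, with somatic cells that carry 1 null allele, and does not measure the deletion in germ cells. The size of this fall depends on the scaling. The log2 fold change was -0.70 with library totals and -2.06 when scaled to the summed UMIs of Sertoli cell markers. The exact permutation test of these CPM, two-sided, gave p = 0.0571, the smallest that 4 against 3 mice allow. Barcodes of 1 to 100 UMIs hold too few for a cell. Per 1000000 UMIs of these barcodes, Tardbp had 79.2 to 141 UMIs in control mice and 55.6 to 94.2 UMIs in TDP-43 cKO mice. These values are without TMM scaling and so are not on the scale of the CPM above.

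The 7 profiles held 119203347 to 159407373 UMIs each and 27487 to 28250 genes with a UMI. Barcodes past the filter of the study, over 1000 detected genes and under 10% mitochondrial UMIs, held 37.5% to 71.9% of the UMIs of control mice and 51.8% to 78.3% of those of TDP-43 cKO mice. Barcodes of over 500 and up to 2000 UMIs held 22.6% to 55.1% of the UMIs in control mice and 1.25% to 7.24% in TDP-43 cKO mice, and mitochondrial UMIs were 4.18% to 4.85% and 7.16% to 7.82% of the total. Any pair of these libraries shared at most 24 barcodes past the filter. TDP-43 cKO replicate 1 and control replicate 2 stood apart. The rank correlation of their genes (Spearman) was 0.934 and 0.942 between TDP-43 cKO replicate 1 and the other TDP-43 cKO mice, which had 0.995 with each other, and 0.971 to 0.982 between control replicate 2 and the other control mice, which had 0.990 to 0.996. Between control replicate 2 and TDP-43 cKO replicates 2 and 3 it was 0.950 and 0.945. These 2 mice were thus closer to control replicate 2 than to TDP-43 cKO replicate 1. The labels do not explain the codes in the deposited matrix names. By these codes, control replicate 2 and TDP-43 cKO replicate 1 share one, control replicates 3 and 4 another, and TDP-43 cKO replicates 2 and 3 another, and the name of control replicate 2 also holds the letters "het". The groups here are those of the labels.

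Of 24768 genes tested, 8145 fell and 8630 rose in the TDP-43 cKO testis at an adjusted p under 0.05 (edgeR), which is 32.9% and 34.8% of the genes tested. The falls were larger. The median log2 fold change was -1.99 among the genes that fell and 1.21 among those that rose, and 1853 genes fell by at least 8-fold while 41 rose by at least 8-fold. At the thresholds of the study, an adjusted p under 0.01 and at least 2-fold, 4258 genes fell and 4104 rose. The 3 TDP-43 cKO mice were all below the 4 control mice for 8602 genes (34.7%), and above for 9058 genes (36.6%). The leading principal component of the 1000 most variable genes, with 92.8% of the variance, separated the groups, with control replicate 2 nearest to the TDP-43 cKO mice and TDP-43 cKO replicate 1 farthest from the control mice. Control replicate 2 lay at -18.8 on it, and TDP-43 cKO replicates 1 to 3 at 148, 43.2 and 41.7.

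How many genes rose depends on what the profiles are scaled to. With TMM, which takes the middle of the genes as unchanged, the median of all genes was a log2 fold change of 0.12. Scaled to library totals it was 0.37, a shift of 0.25, with 6818 genes lower and 10564 higher. Scaled to the summed UMIs of 10 Sertoli cell markers, called Sertoli scaling here, it was -1.01, a shift of -1.13, with 13086 genes (52.8%) lower and 199 (0.803%) higher. All 8145 genes that fell were also called lower with Sertoli scaling, but this scaling shifts all genes downwards, so that was largely set in advance. Library totals shift them upwards, and 6818 of the 8145 then stayed called lower. With Sertoli scaling 199 of the 8630 that rose stayed called higher, and 12952 of the 16775 called genes kept their direction. A rise in the rest of the text is relative to the middle of all genes.

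**Figure D1:**
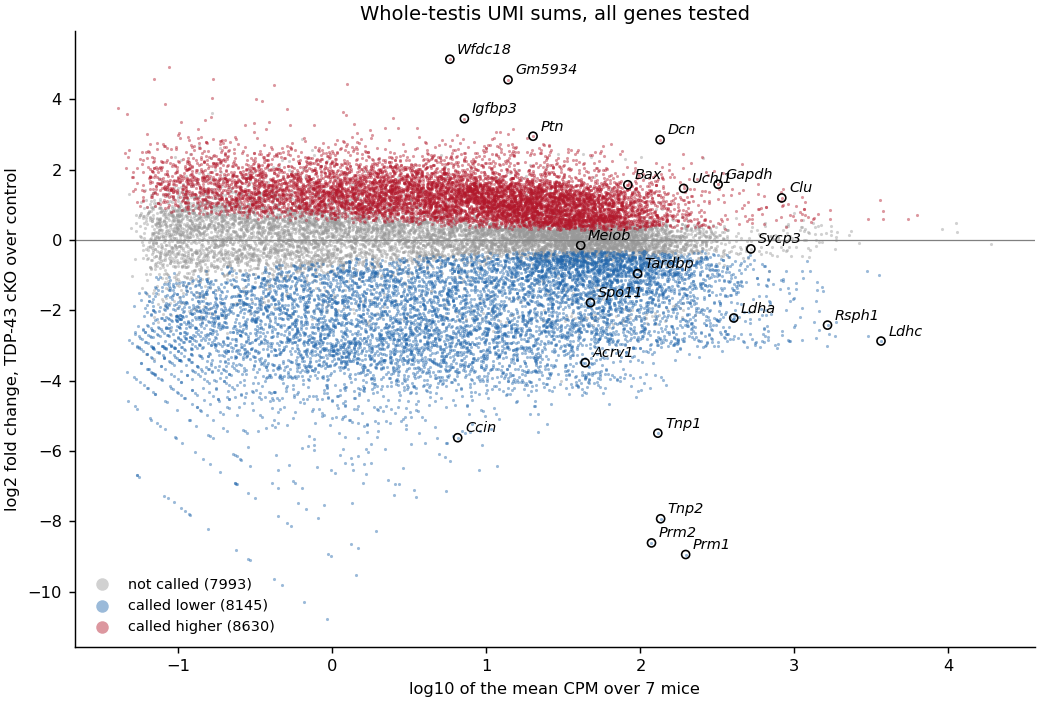
Each point is 1 of the 24768 genes tested, with the log10 of its mean CPM over the 7 mice on the x axis and its log2 fold change of TDP-43 cKO over control on the y axis, in blue where called lower (8145), in red where called higher (8630) and in grey otherwise (7993). The protamine and transition protein genes Prm1, Prm2, Tnp2 and Tnp1 lie far below the other genes of their level, and Ldhc and Rsph1 fell among the most abundant genes. With Sertoli scaling the median of all points shifts by -1.13, and most red points are then not called.

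Markers of the germ cell stages moved in opposite directions along spermatogenesis. All 10 SG markers tested rose, with a median log2 fold change of 1.60 against 0.12 over all genes (0.46 with Sertoli scaling, where 2 remained called). For each list, the 3 members with the highest mean level are named, and any other member was chosen after its values were seen. Uchl1, a ubiquitin hydrolase of SG, had 96.2, 118, 125 and 94.7 CPM in control replicates 1 to 4 and 324, 279 and 297 CPM in TDP-43 cKO replicates 1 to 3. The log2 fold change was 1.47 (SE 0.15, edgeR, adjusted p = 0.00264). The TDP-43 cKO mice lay close together and all above the control mice. Crabp1, a retinoic acid binding protein, and Dmrt1, a transcription factor of SG, rose by log2 fold changes of 1.48 and 1.50 (edgeR, adjusted p = 0.00264 for both), and Zbtb16, a factor of undifferentiated SG, by 2.15 (edgeR, adjusted p = 0.00264).

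Of the 10 markers of pL, L and Z SC, 5 rose and none fell, with a median of 0.64, against 34.8% of all genes called higher. With Sertoli scaling the median was -0.47, and 4 fell and none rose, where 52.8% of all genes fell. Those that rose were Stra8, the factor that starts meiosis, Rhox13, Prdm9, which marks recombination hotspots, Dmc1, a recombinase, and Prss50, by log2 fold changes of 1.03 to 1.36, and with Sertoli scaling these had 0.11, 0.25, -0.077, 0.03 and -0.039. Sycp3 and Sycp1, which are among the most abundant, differed between the TDP-43 cKO mice. Sycp3, a protein of the chromosome axis, had 453, 608, 589 and 588 CPM in control replicates 1 to 4 and 245, 614 and 551 CPM in TDP-43 cKO replicates 1 to 3. The lowest of the 7 mice was TDP-43 cKO replicate 1, the highest was replicate 2, and replicate 3 lay among the control mice, and the log2 fold change was -0.25 (edgeR, adjusted p = 0.489), or 0.059 without TDP-43 cKO replicate 1. Sycp1, of the synaptonemal complex, had a log2 fold change of 0.046 (edgeR, adjusted p = 0.911, -1.03 with Sertoli scaling), and Emc7, a subunit of a membrane insertion complex, -0.02 (edgeR, adjusted p = 0.889). With Sertoli scaling Sycp3 and Emc7 were called lower, at -1.35 and -1.13 (edgeR, adjusted p = 0.0201 and 0.00637).

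Markers of P and D SC and of RS fell. Of the 10 markers of P and D SC, 9 fell, with a median of -2.28, and all 8 RS markers fell, with a median of -3.52, against 32.9% of all genes. All of these P and D SC markers but Id4 are counted again in the lists by function below. So are the RS markers Acrv1, Spaca1, Gapdhs, Tssk1 and Tssk3, and the lists are therefore not independent. Without TDP-43 cKO replicate 1 the medians were -1.85 and -3.05, and without control replicate 2 -2.42 and -3.92. Ldhc, the lactate dehydrogenase subunit of SC and later germ cells, had 7674, 4632, 5462 and 5391 CPM in control replicates 1 to 4 and 56.6, 1386 and 929 CPM in TDP-43 cKO replicates 1 to 3. The fitted log2 fold change was -2.87 (SE 0.91, edgeR, adjusted p = 0.0255), and the adjusted p was 0.0503 without control replicate 1 and 0.0597 without TDP-43 cKO replicate 3. TDP-43 cKO replicate 1 was far below the other TDP-43 cKO mice, and these were below every control mouse. Tbpl1, a TBP-related factor, and Hspa2, a chaperone of SC, had log2 fold changes of -2.27 and -2.11 (edgeR, adjusted p = 0.00454 and 0.0195). Of the RS markers, Tsga8 had 455, 123, 254 and 259 CPM in control replicates 1 to 4 and 4.72, 39.6 and 31.9 CPM in TDP-43 cKO replicates 1 to 3. In the fit, its log2 fold change was -3.42 (SE 0.79, edgeR, adjusted p = 0.00809), and Spaca1 of the acrosome membrane and the kinase Tssk1 had log2 fold changes of -3.04 and -3.96 (edgeR, adjusted p = 0.00432 and 0.00757).

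The summed level of each marker list shows how far the mice were from each other. The P and D SC markers summed to 10607, 7117, 8005 and 7951 CPM in control replicates 1 to 4 and 189.7, 2311 and 1613 CPM in TDP-43 cKO replicates 1 to 3, and the RS markers to 1212, 348, 773 and 804 CPM in control replicates 1 to 4 and 18.7, 102 and 99.3 CPM in TDP-43 cKO replicates 1 to 3. In both, the lowest TDP-43 cKO mouse was several-fold below the other TDP-43 cKO mice, and no TDP-43 cKO mouse reached the lowest control mouse. The SG markers summed to 214, 286, 278 and 215 CPM in control replicates 1 to 4 and 815, 644 and 748 CPM in TDP-43 cKO replicates 1 to 3, with no overlap either, and the pL, L and Z markers to 1299.6, 1809, 1797 and 1822 CPM in control replicates 1 to 4 and 1147, 2177 and 2093 CPM in TDP-43 cKO replicates 1 to 3, with overlap.

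**Figure D2:**
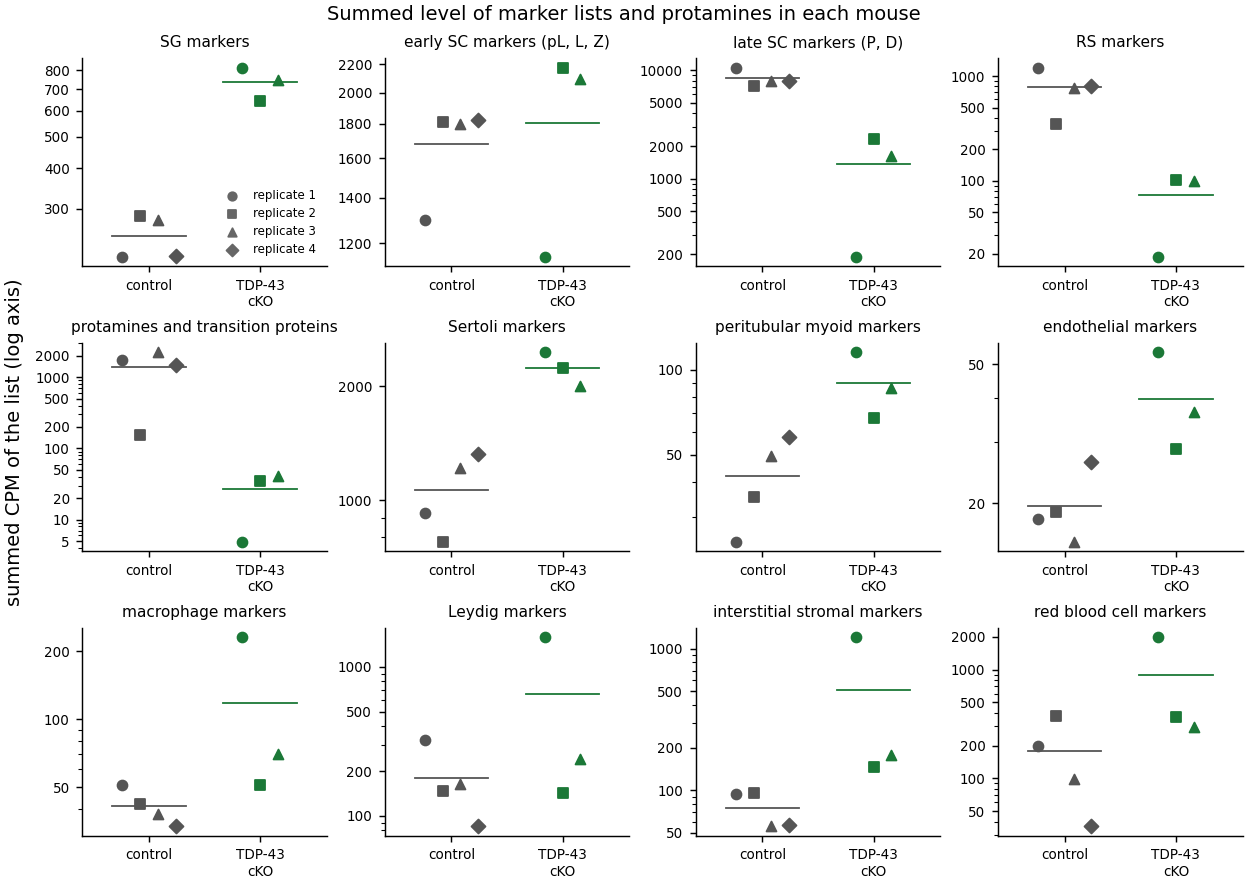
Each panel shows the summed CPM of a list on a log axis for the 4 control mice (grey) and 3 TDP-43 cKO mice (green), with a symbol per replicate number, which is not taken to pair the mice, and a line at the mean of the group. Late SC markers, RS markers and protamines are lower in all TDP-43 cKO mice, SG and Sertoli markers are higher (Sertoli markers only where not scaled to them), and the interstitial stromal, Leydig and macrophage markers of TDP-43 cKO replicate 1 stand far above all other mice.

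Of the called genes with at least 10 CPM in the control mice on average and no overlap between the groups, the 10 with the largest fall were Prm1, Prm2, Tnp2, Cabs1, H2al2a, 1700016P04Rik, 1700034E13Rik, Ccin, Prss55 and 4930570D08Rik, with log2 fold changes of -8.94 to -5.50. Prm1 and Prm2 encode the protamines that replace histones in sperm, Tnp2 a transition protein that precedes them, H2al2a a histone variant of spermatids, Ccin (calicin) a protein of the sperm head cytoskeleton, Cabs1 a calcium-binding protein of spermatids and Prss55 a serine protease of the testis. Prm1 had 352, 3.22, 658 and 361 CPM in control replicates 1 to 4 and 0.188, 1.06 and 0.854 CPM in TDP-43 cKO replicates 1 to 3. On the log2 scale, the fold change was -8.94 (SE 1.84, edgeR, adjusted p = 0.0057). Control replicate 2 was far below the other control mice and still above every TDP-43 cKO mouse. Tnp2 had 263, 6.11, 420.4 and 255 CPM in control replicates 1 to 4 and 0.0558, 1.72 and 1.14 CPM in TDP-43 cKO replicates 1 to 3 and Ccin 15.2, 1.43, 14.6 and 13.7 CPM in control replicates 1 to 4 and 0.0279, 0.313 and 0.343 CPM in TDP-43 cKO replicates 1 to 3. In each of these genes, control replicate 2 was the lowest control mouse and TDP-43 cKO replicate 1 the lowest of its group. Without control replicate 2, the log2 fold changes of Prm1, Tnp2 and Ccin were -9.49, -8.48 and -6.14 (edgeR, adjusted p = 0.00332, 0.00459 and 0.00423). Without TDP-43 cKO replicate 1, Cabs1 and 1700016P04Rik had -5.94 and -5.68 in place of -6.53 and -6.28.

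Protamines, transition proteins and the spermatid structures fell as groups. All 7 genes of protamines and transition proteins fell (median -5.49), as did all 15 acrosome genes (median -3.04), all 15 genes of the Tssk kinases and the sperm tail (median -3.78) and all 8 testis isoforms of glycolysis and pyruvate metabolism (median -2.98), against 32.9% of all genes called lower and a median of 0.12. Of the 21 axoneme genes, 18 fell and none rose (median -2.06), and 13 and 14 fell without control replicate 1 or 2. Without TDP-43 cKO replicate 1, the medians were -5.18, -2.66, -3.28, -2.43 and -1.66, in the same order. Tnp1 had 282, 17.0, 355 and 238 CPM in control replicates 1 to 4 and 2.60, 6.02 and 6.27 CPM in TDP-43 cKO replicates 1 to 3. Over all barcodes, its log2 fold change was -5.49 (SE 1.05, edgeR, adjusted p = 0.00464). Acrv1, a protein of the acrosome that the study names, had 94.8, 37.7, 69.9 and 84.4 CPM in control replicates 1 to 4 and 0.815, 7.66 and 10.7 CPM in TDP-43 cKO replicates 1 to 3. This gave a log2 fold change of -3.49 (SE 0.83, edgeR, adjusted p = 0.00895). All TDP-43 cKO mice lay below the 37.7 CPM of the lowest control mouse. Acrbp, Zpbp and Zpbp2, which package the acrosome or bind the zona pellucida, had log2 fold changes of -2.81, -2.26 and -2.78 (edgeR, adjusted p = 0.00797, 0.00689 and 0.0192).

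Of the tail genes, Odf2, of the outer dense fibres, Ropn1l, of the fibrous sheath, and Smcp, of the mitochondrial capsule, had log2 fold changes of -2.24, -2.77 and -4.13 (edgeR, adjusted p = 0.00581, 0.0149 and 0.00977). Rsph1, a radial spoke protein, had 2994, 2174, 2526 and 2373 CPM in control replicates 1 to 4 and 52.0, 793 and 567 CPM in TDP-43 cKO replicates 1 to 3. Its log2 fold change was -2.42 (SE 0.78, edgeR, adjusted p = 0.0272), and the adjusted p was 0.0503 without control replicate 1 and 0.0584 without TDP-43 cKO replicate 3. Spag16, of the central pair of the axoneme, had a log2 fold change of -2.003 (edgeR, adjusted p = 0.0493), and its adjusted p was 0.0586 to 0.0809 without any 1 mouse other than TDP-43 cKO replicate 1. Dnah8, an outer arm dynein, had 631, 1068, 679 and 748 CPM in control replicates 1 to 4 and 13.3, 309 and 248 CPM in TDP-43 cKO replicates 1 to 3, which do not overlap between the groups, but a log2 fold change of -2.04 with an adjusted p of 0.0696 (edgeR). Again TDP-43 cKO replicate 1 was far below the other TDP-43 cKO mice.

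Among genes of glycolysis and pyruvate metabolism, the testis isoforms fell and the somatic isoforms moved in both directions. Gk2, a testis glycerol kinase, and Pdha2, the testis subunit of pyruvate dehydrogenase, had log2 fold changes of -2.84 and -2.04 (edgeR, adjusted p = 0.0255 and 0.0225), and Gk2 had an adjusted p of 0.0566 without TDP-43 cKO replicate 3. Of the 10 somatic isoforms, 6 rose and 3 fell (median 0.97), against 34.8% and 32.9% of all genes, so the share that fell is near that of all genes. With Sertoli scaling 4 fell and none rose (median -0.16), a share under the 52.8% of all genes. Gapdh had 157, 155, 194 and 183 CPM in control replicates 1 to 4 and 646, 440.4 and 461 CPM in TDP-43 cKO replicates 1 to 3. The log2 fold change was 1.58 (SE 0.18, edgeR, adjusted p = 0.00264), and that of Aldoa was 1.04 (edgeR, adjusted p = 0.0256, and -0.12 with Sertoli scaling). Without any 1 control mouse, Aldoa had an adjusted p of 0.0688 to 0.106 (edgeR). Ldha fell, although it is listed with the somatic isoforms, with 677, 549, 582 and 625 CPM in control replicates 1 to 4 and 86.3, 176 and 129.9 CPM in TDP-43 cKO replicates 1 to 3. The fitted log2 fold change was -2.22 (SE 0.26, edgeR, adjusted p = 0.00264). The other somatic isoforms that fell were Hk1, a hexokinase that germ cells also use, and Tpi1, with log2 fold changes of -1.56 and -0.95 (edgeR, adjusted p = 0.00264 and 0.0224). Tpi1 was not called without control replicate 1 or TDP-43 cKO replicates 2 or 3 (edgeR, adjusted p = 0.0547 to 0.071).

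The 250 bases before the start sites of 3 genes that fell are shown from RefSeq (GRCm38.p6), because TDP-43 prefers stretches of alternating T and G. The acrosome gene Acrv1 is named by the study. Prm1 and Tnp2 are from the 10 genes with the largest fall, with no further rule for the choice. All 3 hold such a stretch and no gene that rose is shown. Binding of TDP-43 to these promoters was not tested. Capitals mark TGTGTG or, for the other strand, CACACA:
Acrv1 (chr9:36692970-36693219, plus strand): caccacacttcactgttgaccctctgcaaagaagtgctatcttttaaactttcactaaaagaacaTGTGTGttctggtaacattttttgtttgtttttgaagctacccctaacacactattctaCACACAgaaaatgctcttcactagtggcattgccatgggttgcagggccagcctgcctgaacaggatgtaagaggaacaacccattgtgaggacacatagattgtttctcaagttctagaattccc
Prm1 (chr16:10796824-10797073, minus strand): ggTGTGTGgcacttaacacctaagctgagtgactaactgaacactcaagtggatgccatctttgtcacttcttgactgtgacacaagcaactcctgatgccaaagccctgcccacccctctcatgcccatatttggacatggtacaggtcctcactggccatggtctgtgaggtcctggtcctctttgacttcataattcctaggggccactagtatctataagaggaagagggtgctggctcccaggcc
Tnp2 (chr16:10788656-10788905, minus strand): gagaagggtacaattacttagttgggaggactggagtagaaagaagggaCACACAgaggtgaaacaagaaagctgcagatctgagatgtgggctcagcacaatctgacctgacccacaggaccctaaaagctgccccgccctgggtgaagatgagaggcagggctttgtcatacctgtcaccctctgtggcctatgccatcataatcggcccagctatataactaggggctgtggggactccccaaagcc
Over the 27025 genes with a promoter in the table, TGTGTG stood on either strand of the 250 bases in 17.7%, and over the 17008 of them that were tested here in 15.6%. The share was 17.1% of the 5405 genes that fell and 14.5% of the 6255 that rose, and 22.2% of the 1156 that fell by at least 8-fold. In the same order, the TATA box TATAAA stood in 12.97%, 9.02%, 10.5%, 7.87% and 15.4%, the X-box core GTTGCC in 10.5%, 11.1%, 14.01%, 9.45% and 17.6%, and the cyclic AMP response element TGACGTCA in 1.62%, 2.18%, 2.39%, 2.13% and 1.04%. These shares describe letters in a window and are not tested.

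The genes of recombination did not move together. Of 11 genes of DSB formation, which makes the breaks that start meiotic recombination, 6 rose and 1 fell (median 0.94), against 34.8% and 32.9% of all genes. With Sertoli scaling none rose and 5 fell (median -0.17), a share under the 52.8% of all genes. The gene that fell was Spo11, the enzyme that makes the breaks, at 70.6, 65.4, 64.6 and 71.4 CPM in control replicates 1 to 4 and 6.88, 29.5 and 23.1 CPM in TDP-43 cKO replicates 1 to 3. In the fit, its log2 fold change was -1.78 (SE 0.44, edgeR, adjusted p = 0.0106). All TDP-43 cKO mice lay below the 64.6 CPM of the lowest control mouse. The genes that rose were Rec114, Mei4, Mei1, Gm960 (the gene now called Top6bl), Prdm9 and its reader Zcwpw1, by log2 fold changes of 0.94 to 1.39, and with Sertoli scaling Mei1, Gm960, Prdm9 and Zcwpw1 turned to -0.043, -0.14, -0.077 and -0.17. Zcwpw1 had 45.4, 57.0, 65.1 and 53.1 CPM in the control mice and 97.7, 106 and 114 CPM in the TDP-43 cKO mice, with no overlap. Ankrd31 and Hormad1, which act in the placing of breaks and on unsynapsed axes, had log2 fold changes of -0.10 and -0.29 (edgeR, adjusted p = 0.75 and 0.517), and with Sertoli scaling were called lower at -1.22 and -1.38 (edgeR, adjusted p = 0.0245 and 0.0292).

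Of 15 strand exchange genes, 5 fell and 3 rose (median -0.14, and 0.11 with library totals), and 1 rose without control replicate 3 or TDP-43 cKO replicate 3. The share that fell is near the 32.9% of all genes and the share that rose under their 34.8%. With Sertoli scaling 11 fell and none rose (median -1.25), where 52.8% of all genes fell. Psmc3ip (HOP2), a partner of DMC1, had 473, 274, 373 and 358 CPM in control replicates 1 to 4 and 31.8, 134 and 100.3 CPM in TDP-43 cKO replicates 1 to 3. On the log2 scale, the fold change was -2.06 (SE 0.47, edgeR, adjusted p = 0.00816), and that of Hsf2bp, a partner of BRCA2, was -1.36 (edgeR, adjusted p = 0.00866). The recombinase Dmc1 was among those that rose, by 1.15 (edgeR, adjusted p = 0.00486), and had 0.03 with Sertoli scaling. Of the genes that the study names, Meiob had 29.0, 52.7, 41.7 and 47.5 CPM in control replicates 1 to 4 and 16.4, 51.9 and 47.3 CPM in TDP-43 cKO replicates 1 to 3, with the lowest value in TDP-43 cKO replicate 1 and the others within the range of the control mice. Its log2 fold change was -0.15 (edgeR, adjusted p = 0.749), and 0.22 without TDP-43 cKO replicate 1. Spata22, the partner of MEIOB, had a log2 fold change of -0.40 and Rad51c, which acts in homologous recombination, of 0.086 (edgeR, adjusted p = 0.344 and 0.678), and for both the mice of the groups overlapped. With Sertoli scaling Meiob, Spata22 and Rad51c were called lower, at -1.25, -1.51 and -1.03 (edgeR, adjusted p = 0.0445, 0.017 and 0.0208). Brca2 had a log2 fold change of 0.24 (edgeR, adjusted p = 0.256), and -0.87 with Sertoli scaling (edgeR, adjusted p = 0.0447).

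Of 14 genes of the synaptonemal complex, the axis and the meiotic cohesins, 4 fell and 2 rose (median -0.31), and 1 rose without control replicate 1 or 4 or TDP-43 cKO replicate 3. With Sertoli scaling 10 fell and none rose (median -1.40). Syce1 of the central element had a log2 fold change of -2.09 and the cohesin subunits Stag3 and Rec8 of -0.94 and -0.90 (edgeR, adjusted p = 0.00482, 0.0129 and 0.00992), while the cohesin subunit Rad21l rose by 0.95 (edgeR, adjusted p = 0.0106, and -0.14 with Sertoli scaling) and Smc1b had -0.33 (edgeR, adjusted p = 0.189), or -1.42 with Sertoli scaling (edgeR, adjusted p = 0.0055). Of 12 crossover genes, 2 fell and 1 rose (median -0.082, and 0.17 with library totals). With Sertoli scaling 9 fell and none rose (median -1.21). In both lists the shares called are under those of all genes with TMM, and the shares that fell with Sertoli scaling are above the 52.8% of all genes. The gene that rose was the X-linked Tex11, with 28.9, 43.3, 44.2 and 39.6 CPM in the control mice and 72.3, 88.2 and 99.1 CPM in the TDP-43 cKO mice. Over all barcodes, its log2 fold change was 1.15 (SE 0.19, edgeR, adjusted p = 0.00323). Those that fell were Mlh3 and Prr19, at log2 fold changes of -1.02 and -1.41 (edgeR, adjusted p = 0.016 and 0.00306). Cntd1, the cyclin-like partner of PRR19, had 113, 126, 115 and 132 CPM in the control mice and 9.58, 69.4 and 56.6 CPM in the TDP-43 cKO mice with no overlap and an adjusted p of 0.0581 (edgeR), and the helicase Hfm1 had a log2 fold change of -0.17 (edgeR, adjusted p = 0.646), or -1.28 with Sertoli scaling (edgeR, adjusted p = 0.0256). Cntd1 was called lower with Sertoli scaling and without TDP-43 cKO replicate 1, at -2.51 and -0.95 (edgeR, adjusted p = 0.00595 and 0.00094). It had -1.63 in barcodes past the filter and -1.33 in the others (edgeR, adjusted p = 0.0302 and 0.0895). Without control replicate 2 Cntd1 was not called, at -1.56 (edgeR, adjusted p = 0.0709).

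The lists of later meiosis mostly fell. Of 11 meiotic and spermatid transcription regulators, 7 fell and 1 rose (median -1.70), against 32.9% and 34.8% of all genes. Tcfl5, a factor of pachytene SC, had 318, 311, 306 and 314 CPM in control replicates 1 to 4 and 40.0, 133 and 114 CPM in TDP-43 cKO replicates 1 to 3. This gave a log2 fold change of -1.71 (SE 0.38, edgeR, adjusted p = 0.00744). Nkapl had a log2 fold change of -2.44 (edgeR, adjusted p = 0.0194), and the spermatid factors Crem, Rfx2 and Sox30 had -1.96, -1.57 and -1.51 (edgeR, adjusted p = 0.00282, 0.0131 and 0.0181). The gene that rose was the X-linked Taf7l, by 1.60 (edgeR, adjusted p = 0.00264). Of 16 genes of the meiotic divisions, 12 fell and 1 rose (median -1.09, against the same shares). Ccna1, the cyclin that SC need to leave prophase, and Aurkc, a meiotic Aurora kinase, had log2 fold changes of -2.83 and -2.68 (edgeR, adjusted p = 0.0163 and 0.0326, with Aurkc at 0.0631 without control replicate 1 and 0.0609 without TDP-43 cKO replicate 3), and Cks2 and Cdc20 of -1.04 and -0.90 (edgeR, adjusted p = 0.0133 and 0.0227). Ccnb3, a cyclin of L and Z SC, was the gene that rose, by 2.38 (edgeR, adjusted p = 0.00301).

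Of 19 piRNA pathway genes, 10 fell and 3 rose (median -1.10), against 32.9% and 34.8% of all genes. Piwil1 (MIWI), the Argonaute of pachytene piRNAs, had 423, 521, 467 and 469 CPM in control replicates 1 to 4 and 7.83, 173 and 117 CPM in TDP-43 cKO replicates 1 to 3. Its log2 fold change was -2.24 (SE 0.84, edgeR, adjusted p = 0.046), and the call was lost without any 1 control mouse or TDP-43 cKO replicate 3 (edgeR, adjusted p = 0.0648 to 0.0889). TDP-43 cKO replicate 1 was far below replicates 2 and 3, and all 3 were below every control mouse. Mael, needed to silence transposons, and Ddx4, the germ cell helicase VASA, had log2 fold changes of -1.55 and -1.14 (edgeR, adjusted p = 0.00659 and 0.011). The genes that rose were Piwil4 (MIWI2), the Argonaute of fetal germ cells and SG, Btbd18 and Tex15, at log2 fold changes of 2.26, 0.94 and 1.02 (edgeR, adjusted p = 0.00264, 0.018 and 0.00361), and with Sertoli scaling Btbd18 and Tex15 turned to -0.19 and -0.10. Btbd18 had an adjusted p of 0.0506 without control replicate 3 and 0.0694 without TDP-43 cKO replicate 3.

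**Figure D3:**
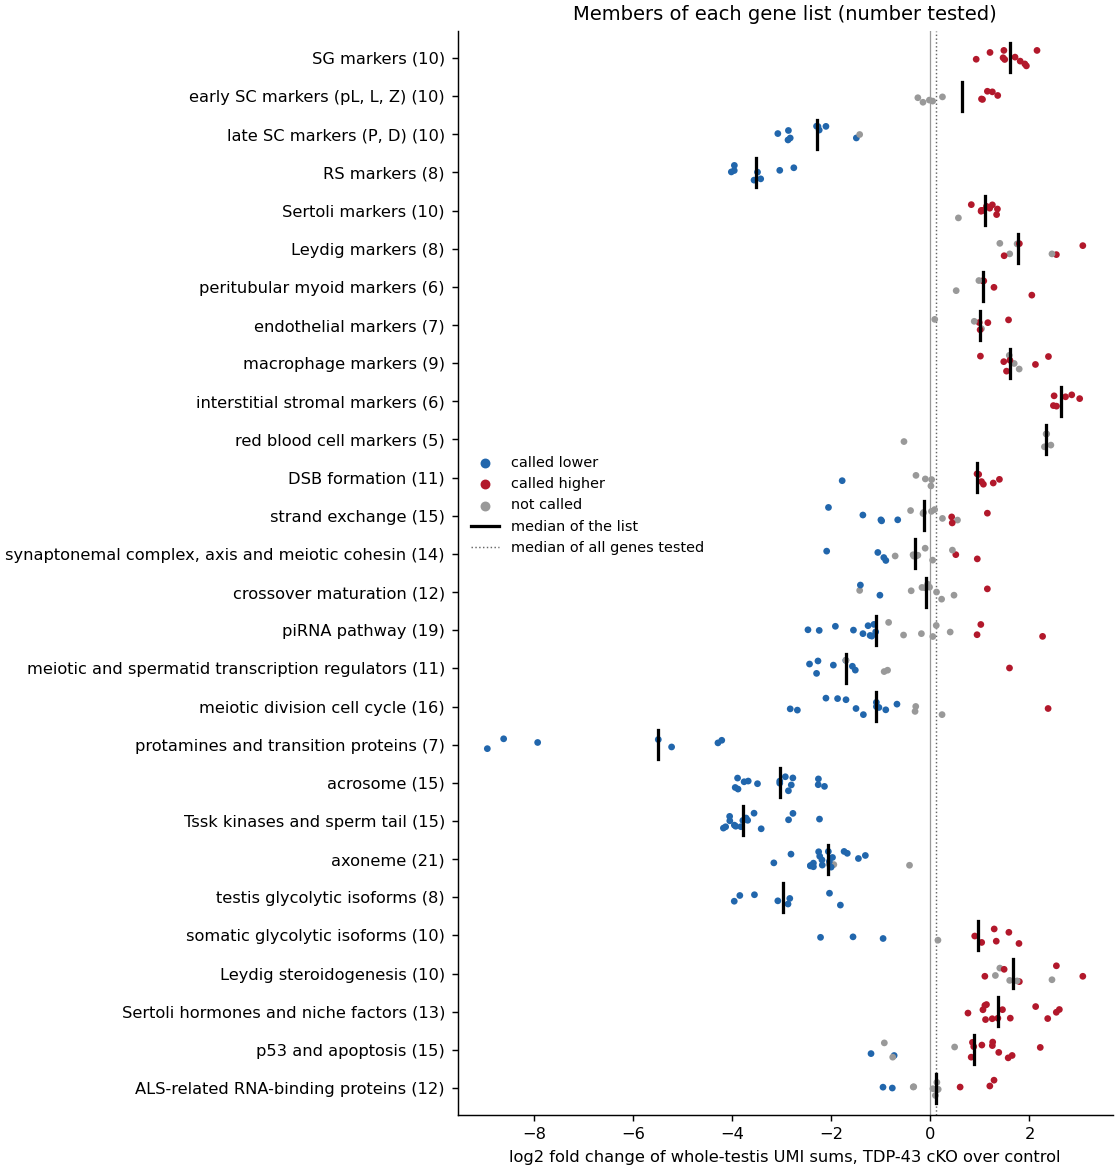
Each row is a gene list with its number of genes tested, each point a gene at its log2 fold change of TDP-43 cKO over control (x axis), in blue where called lower, red where called higher and grey where not called, with a black line at the median of the list and a dotted line at the median of all genes (0.12). Lists of spermatid genes lie to the left, from -5.49 for protamines and transition proteins to -2.06 for the axoneme, lists of recombination genes lie on both sides, and lists of SG and somatic cells lie to the right, and Sertoli scaling would shift the median of all genes by -1.13.

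All or most genes of the Sertoli and interstitial stromal lists rose relative to the middle of all genes, other somatic lists rose in part, and red blood cell markers were not called. All 13 genes of Sertoli hormones and niche factors rose (median 1.36) and 9 of 10 Sertoli markers did (median 1.10), against 34.8% of all genes. With each mouse left out in turn, 11 or 12 of the 13 and 8 or 9 of the 10 were called. Trf and Inhbb each lost the call in 5 of these fits. Without TDP-43 cKO replicate 1, Trf had a log2 fold change of 0.39 (edgeR, adjusted p = 0.221). Clu (clusterin) had 469, 379, 616 and 664 CPM in control replicates 1 to 4 and 1470.0, 1158 and 1035 CPM in TDP-43 cKO replicates 1 to 3. The log2 fold change was 1.20 (SE 0.24, edgeR, adjusted p = 0.00525). Kitl, the ligand of the KIT receptor of SG, had 37.9, 56.7, 57.3 and 66.2 CPM in control replicates 1 to 4 and 169, 134 and 118 CPM in TDP-43 cKO replicates 1 to 3. The fitted log2 fold change was 1.36 (SE 0.22, edgeR, adjusted p = 0.0031). In both, the 3 TDP-43 cKO mice lay above the control mice. Inha, an inhibin subunit, Cldn11, a junction protein, and Rhox8 had log2 fold changes of 1.10, 1.06 and 1.02 (edgeR, adjusted p = 0.00686, 0.00499 and 0.00661), and with Sertoli scaling Cldn11 and Rhox8 had -0.014 and -0.032. Amhr2, the receptor of anti-Müllerian hormone, had 0.57 (edgeR, adjusted p = 0.0798, and -0.48 with Sertoli scaling). Sertoli scaling sets the sum of the Sertoli markers equal in all mice, and the 13 hormone and niche genes then had a median of 0.24, with 1 called higher. Cldn11 and Fshr are in both lists, so this median is in part set by the scaling. The Sertoli markers took 0.0757% to 0.124% of all UMIs in control mice and 0.228% to 0.274% in TDP-43 cKO mice.

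Every marker on the interstitial stromal, Leydig and macrophage lists was highest in TDP-43 cKO replicate 1. With Sertoli scaling none of the stromal, Leydig, macrophage and myoid markers was called, at medians of 1.36, 0.49, 0.37 and 0.0054, while with TMM 34.8% of all genes were called higher. All 6 interstitial stromal markers rose (median 2.64), and without TDP-43 cKO replicate 1 the median was 0.91 and 4 were called. Without control replicate 2, 4 were called as well, and 3 without control replicate 1 and 1 without control replicate 3 or 4. Dcn, the matrix proteoglycan decorin, had 48.3, 46.1, 27.0 and 24.8 CPM in control replicates 1 to 4 and 618, 77.2 and 97.8 CPM in TDP-43 cKO replicates 1 to 3. In the fit, its log2 fold change was 2.85 (SE 0.74, edgeR, adjusted p = 0.0123), and 1.26 (edgeR, adjusted p = 0.00622) without TDP-43 cKO replicate 1. TDP-43 cKO replicates 2 and 3 were also above every control mouse. The receptor Pdgfra and the collagen Col1a2 had log2 fold changes of 2.50 and 2.73 (edgeR, adjusted p = 0.018 and 0.0164), and 0.87 and 0.95 without TDP-43 cKO replicate 1. Both lost the call without control replicate 3 or 4 (edgeR, adjusted p = 0.0545 to 0.0603), and Pdgfra also without control replicate 1 (edgeR, adjusted p = 0.0547). Of 8 Leydig markers, 4 rose (median 1.77), and without TDP-43 cKO replicate 1 the median was 0.36 and 1 was called, while 2 were called without control replicate 1, 1 without control replicate 3, 0 without control replicate 2 or 4 and 6 without TDP-43 cKO replicate 2 or 3. Of 10 steroidogenesis genes, which include all 8 Leydig markers, 5 rose (median 1.68, and 0.36 with 2 called without that mouse), while 3 were called without control replicate 1, 2 without control replicate 3, 1 without control replicate 2 or 4 and 8 without TDP-43 cKO replicate 2 or 3. Cyp17a1, which makes androgens, had 109, 40.7, 41.3 and 20.2 CPM in control replicates 1 to 4 and 437, 29.4 and 65.7 CPM in TDP-43 cKO replicates 1 to 3. Above all other mice was TDP-43 cKO replicate 1, and replicates 2 and 3 were within the range of the control mice, and the log2 fold change was 1.75 (edgeR, adjusted p = 0.129), or -0.15 without that mouse. Cyp11a1, which starts steroid synthesis, had 1.40 (edgeR, adjusted p = 0.158), or -0.22 without it, and Hsd3b6 2.54 (edgeR, adjusted p = 0.0476), or 0.51 (edgeR, adjusted p = 0.455) without it. Hsd3b6 was also not called without any 1 control mouse (edgeR, adjusted p = 0.0664 to 0.12).

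Of 9 macrophage markers, 6 rose (median 1.61), and without TDP-43 cKO replicate 1 the median was 0.52 and 2 were called, with 1 called without any 1 control mouse and all 9 without TDP-43 cKO replicate 2. Mrc1, a mannose receptor, had 16.6, 17.2, 19.1 and 16.8 CPM in the control mice and 55.4, 23.4 and 26.4 CPM in the TDP-43 cKO mice. Dab2, an endocytic adaptor, had 6.12, 5.95, 4.12 and 3.96 CPM in the control mice and 42.3, 10.9 and 12.5 CPM in the TDP-43 cKO mice. In both, TDP-43 cKO replicate 1 was highest and all TDP-43 cKO mice lay above the control mice. Their log2 fold changes were 1.01 (-0.15 with Sertoli scaling) and 2.12 (edgeR, adjusted p = 0.0187 and 0.00819), and 0.52 and 1.22 without TDP-43 cKO replicate 1. Mrc1 was not called without any 1 control mouse (edgeR, adjusted p = 0.0651 to 0.0806). F13a1 had 1.59 (edgeR, adjusted p = 0.0911), and 0.10 without TDP-43 cKO replicate 1. Of 6 myoid markers, 4 rose (median 1.07), and 1 was called without control replicate 2 and 2 without control replicate 3. Acta2 and Myh11, the actin and myosin of smooth muscle, had log2 fold changes of 1.06 and 1.08 (edgeR, adjusted p = 0.0154 and 0.033), and Tagln 0.98 (edgeR, adjusted p = 0.0519), with Acta2 at -0.012 and Tagln at -0.065 with Sertoli scaling. Acta2 was not called without control replicate 2 (edgeR, adjusted p = 0.056), nor Myh11 without control replicate 2 or 3 or TDP-43 cKO replicate 2 or 3 (edgeR, adjusted p = 0.0615 to 0.0879). Of 7 endothelial markers, 4 rose (median 1.00, and -0.083 with Sertoli scaling), and 1 was called without control replicate 2 or 3 and 2 without control replicate 1 or TDP-43 cKO replicate 3. Beside these macrophage, myoid and endothelial counts, 34.8% of all genes were called higher. Vwf, Ptprb and Pecam1 had log2 fold changes of 0.99, 1.00 and 1.16 (edgeR, adjusted p = 0.0194, 0.0242 and 0.0053), and with Sertoli scaling Vwf and Ptprb had -0.11 and -0.083. Vwf lost the call without control replicate 2, 3 or 4 or TDP-43 cKO replicate 3 (edgeR, adjusted p = 0.0573 to 0.0966), and Ptprb without control replicate 1, 2 or 3 or TDP-43 cKO replicate 3 (edgeR, adjusted p = 0.0584 to 0.0854). None of the 5 red blood cell markers was called, while 2 were called higher without control replicate 2 or TDP-43 cKO replicate 2 and 3 without TDP-43 cKO replicate 3. Hbb-bs had 109, 192, 54.9 and 16.6 CPM in the control mice and 1059, 198 and 155 CPM in the TDP-43 cKO mice. On the log2 scale, the fold change was 2.34 (edgeR, adjusted p = 0.0556), and 0.92 without TDP-43 cKO replicate 1. Hba-a1 and Hba-a2, near-identical copies that share reads, had 2.35 and 2.30 (edgeR, adjusted p = 0.0525 and 0.0577). Among all mice, TDP-43 cKO replicate 1 held the highest summed level of red blood cell, Leydig, stromal and macrophage markers, and their part in the calls of other genes was not tested.

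Of the called genes with at least 10 CPM in the TDP-43 cKO mice on average and no overlap between the groups, the 10 with the largest rise were Wfdc18, Gm5934, Igfbp3, Ccn1, Vegfd, Insl3, Tcf21, Efemp1, Ptn and Cp, with log2 fold changes of 5.14 to 2.90. Wfdc18, which encodes a small secreted protein with a WAP domain, had 0.946, 0.301, 0.0229 and 0.214 CPM in control replicates 1 to 4 and 21.3, 10.3 and 7.34 CPM in TDP-43 cKO replicates 1 to 3. Over all barcodes, its log2 fold change was 5.14 (SE 0.99, edgeR, adjusted p = 0.00477). Gm5934, an X-linked gene, had 0.877, 2.12, 1.14 and 1.04 CPM in control replicates 1 to 4 and 10.7, 40.1 and 40.8 CPM in TDP-43 cKO replicates 1 to 3. This gave a log2 fold change of 4.56 (SE 0.55, edgeR, adjusted p = 0.00264). Here TDP-43 cKO replicate 1 was the lowest of its group. Igfbp3, which binds insulin-like growth factors, had 0.739, 2.31, 0.999 and 1.41 CPM in control replicates 1 to 4 and 20.7, 12.5 and 11.7 CPM in TDP-43 cKO replicates 1 to 3. Its log2 fold change was 3.45 (SE 0.43, edgeR, adjusted p = 0.00264), with all TDP-43 cKO mice far above the control mice. Ccn1 and Ptn encode secreted factors. Ccn1 had 3.38, 3.49, 2.45 and 4.25 CPM in the control mice and 64.8, 15.2 and 9.89 CPM in the TDP-43 cKO mice, and Ptn had 5.42, 7.01, 3.38 and 4.87 CPM in the control mice and 86.5, 14.5 and 18.9 CPM in the TDP-43 cKO mice. In both, TDP-43 cKO replicate 1 was several-fold above the other TDP-43 cKO mice. Insl3, the Leydig cell hormone of testis descent, had 4.14, 1.81, 3.21 and 1.89 CPM in control replicates 1 to 4 and 58.2, 5.03 and 6.65 CPM in TDP-43 cKO replicates 1 to 3, and without TDP-43 cKO replicate 1 a log2 fold change of 1.08 (edgeR, adjusted p = 0.0271) in place of 3.08 (edgeR, adjusted p = 0.0169). Insl3 was not called without control replicate 2 or 4 (edgeR, adjusted p = 0.055 and 0.057). Without TDP-43 cKO replicate 1, the stromal factor Tcf21 had 0.68 and the growth factor Vegfd 0.90, in place of 3.01 and 3.08, and neither was called (edgeR, adjusted p = 0.066 and 0.111). Nor were they without any 1 control mouse (edgeR, adjusted p = 0.053 to 0.0706). Without TDP-43 cKO replicate 1, Ccn1 had 1.89 in place of 3.14, the matrix protein Efemp1 1.28, Ptn 1.70 and ceruloplasmin Cp 1.52, while Wfdc18, Gm5934 and Igfbp3 had 4.59, 4.96 and 3.14. With Sertoli scaling Vegfd, Insl3, Tcf21 and Efemp1 were not called, at 1.74, 1.84, 1.69 and 1.69 (edgeR, adjusted p = 0.0581 to 0.111). Wfdc18, Gm5934, Igfbp3, Ccn1, Ptn and Cp stayed called, at 3.85, 3.40, 2.23, 1.93, 1.68 and 1.65 (edgeR, highest adjusted p = 0.0369).

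Of 15 genes of the p53 pathway and apoptosis, 10 rose and 2 fell (median 0.88), against 34.8% and 32.9% of all genes. With Sertoli scaling none rose and 4 fell (median -0.23), a share under the 52.8% of all genes. Bax, which opens the mitochondrial membrane in apoptosis, had 43.7, 44.5, 47.5 and 43.9 CPM in control replicates 1 to 4 and 158, 115 and 127 CPM in TDP-43 cKO replicates 1 to 3. The log2 fold change was 1.57 (SE 0.14, edgeR, adjusted p = 0.00264), and 0.43 with Sertoli scaling. Trp53, Fas, Chek2 and Atm rose by log2 fold changes of 1.04, 2.22, 1.38 and 1.25 (edgeR, adjusted p = 0.00264, 0.00336, 0.00264 and 0.00274), and with Sertoli scaling Trp53 had -0.095. Mdm2, the ubiquitin ligase of p53, fell, with 129, 135, 129 and 130.4 CPM in the control mice and 55.7, 94.3 and 86.3 CPM in the TDP-43 cKO mice. The fitted log2 fold change was -0.73 (SE 0.19, edgeR, adjusted p = 0.0125). The other gene that fell was Zmat3, at -1.20 (edgeR, adjusted p = 0.00488). Atr, a kinase of the meiotic checkpoint, had -0.76 (edgeR, adjusted p = 0.0806), or -1.87 with Sertoli scaling (edgeR, adjusted p = 0.00554). It had -1.02 in barcodes past the filter and -0.62 in the others (edgeR, adjusted p = 0.0138 and 0.244).

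Of 12 genes for RNA-binding and related proteins, listed as related to amyotrophic lateral sclerosis and with Tardbp among them, 2 fell and 3 rose (median 0.12). These shares are under the 32.9% and 34.8% of all genes, and 4 fell without control replicate 1 or 2. With Sertoli scaling 8 fell and none rose (median -1.04, against 52.8% of all genes that fell). Beside Tardbp, Ewsr1 fell, with 308, 267, 264 and 271 CPM in the control mice and 135, 183 and 171 CPM in the TDP-43 cKO mice. In the fit, its log2 fold change was -0.77 (SE 0.15, edgeR, adjusted p = 0.00523). Among those that rose, Hnrnpa1 and Ubqln2 did so by 1.28 and 1.20 (edgeR, adjusted p = 0.00274 and 0.00293), and with Sertoli scaling these had 0.12 and 0.10. Hnrnpa2b1 and Hnrnpa3 had 0.052 and 0.13 (edgeR, adjusted p = 0.744 and 0.381), with mice that overlapped between the groups, and -1.07 and -1.01 with Sertoli scaling (edgeR, adjusted p = 0.0145 and 0.0196).

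The shares of called genes on the sex chromosomes are given beside those on the autosomes as a description, with no test between chromosomes. X-linked genes are shut down in pachytene SC by meiotic sex chromosome inactivation and read in SG and somatic cells. Of 883 X-linked genes, 594 rose (67.3%) and 159 fell (18.0%), against 33.7% and 33.3% of 23755 autosomal genes. The median log2 fold change was 1.15 on the X and 0.091 on the autosomes. The gap between them was 1.06 here, 0.94 without TDP-43 cKO replicate 1, 1.20 in barcodes past the filter and 0.91 in the others. With Sertoli scaling the medians were 0.025 and -1.04, and 15 X-linked genes were called higher and 212 lower. The gap was then 1.06, but a change of scaling shifts all genes about alike and so leaves the gap nearly fixed. X-linked genes took 0.965, 0.969, 1.07 and 1.08% of the UMIs in control replicates 1 to 4 and 3.095, 2.20 and 2.36% in TDP-43 cKO replicates 1 to 3, a share that no scaling changes. The groups did not overlap (exact permutation test, two-sided, p = 0.0571, the smallest possible for 4 against 3 mice), and TDP-43 cKO replicate 1 was highest. Rpl39, Rps4x and Tmsb4x, abundant X-linked genes named after their values were seen, had means of 159 and 594 CPM, 83.2 and 382 CPM and 485 and 1250.2 CPM in control and TDP-43 cKO mice, and log2 fold changes of 1.90, 2.20 and 1.37 (0.69, 1.00 and 0.23 with Sertoli scaling).

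Of 84 Y-linked genes, 67 fell (79.8%) and 14 rose (16.7%), with a median of -3.26. Many Y-linked genes are near-identical copies read in spermatids, so reads cannot be assigned among them with certainty. Some Y-linked genes that have a counterpart on the X were among those that rose. Uty, Ddx3y, Eif2s3y, Uba1y and Usp9y, named after their values were seen, had log2 fold changes of 1.43, 1.03, 0.71, 1.30 and 1.49 (edgeR, highest adjusted p = 0.0049), and with Sertoli scaling 0.28, -0.11, -0.40, 0.18 and 0.36. Y-linked genes took 0.0521, 0.0325, 0.0324 and 0.0332% of the UMIs in control mice and 0.0454, 0.0711 and 0.0667% in TDP-43 cKO mice, which overlap (exact permutation test, two-sided, p = 0.114). On chromosome 14, 44.8% of 1086 genes fell, the highest share of any autosome, with a median of -0.50.

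**Figure D4:**
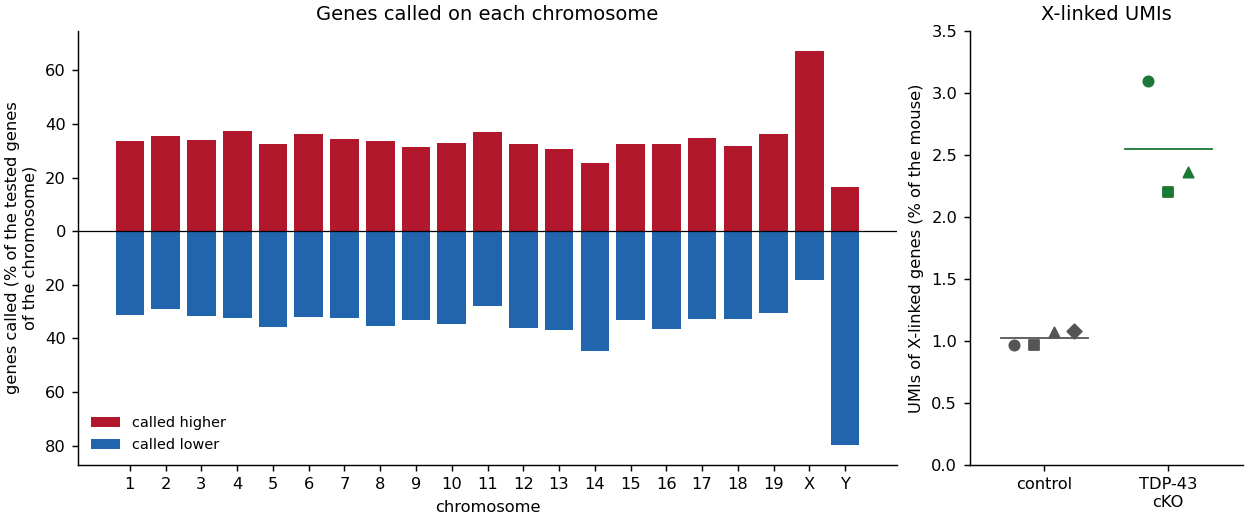
The left panel shows, per chromosome (x axis), the percentage of tested genes called higher (red, upwards) and lower (blue, downwards), and the right panel the percentage of UMIs of X-linked genes in each mouse, with a symbol per replicate number and a line at the mean. The X bar is 67.3% higher and 18.0% lower, the Y bar is 79.8% lower, and all 3 TDP-43 cKO mice lie above all control mice. The bars are with TMM, and with Sertoli scaling 15 X-linked genes remained called higher and 212 were called lower.

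Most called genes had the same direction in the barcodes that the filter of the study leaves out. In barcodes not past the filter, 6365 genes were called lower and 5084 higher, and in barcodes past it 8686 and 7472. Of the 15565 genes called over all barcodes and tested in those not past the filter, 15558 had the same direction there, and 6253 were called lower and 5008 higher in both. The medians of the RS markers were -3.67 past the filter and -3.41 in the others, those of the P and D SC markers -2.52 and -2.28, and those of the SG markers 1.41 and 1.93. Sertoli markers had 1.70 and 0.94, red blood cell markers 1.05 and 3.02. Prm1 had log2 fold changes of -9.59 and -8.41, and Spo11 of -1.97 and -1.67. Both kinds of barcode come from the same mice, so they are not independent. Their UMIs are also part of the sums that gave the calls, so the shared direction was largely set in advance. Of the 13 mitochondrially encoded genes, whose share is part of this filter, 9 rose and none fell over all barcodes (median 0.60). Of all genes, 34.8% rose and 32.9% fell. These values are with TMM, and Sertoli scaling shifts the median of all genes by -1.13.

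**Figure D5:**
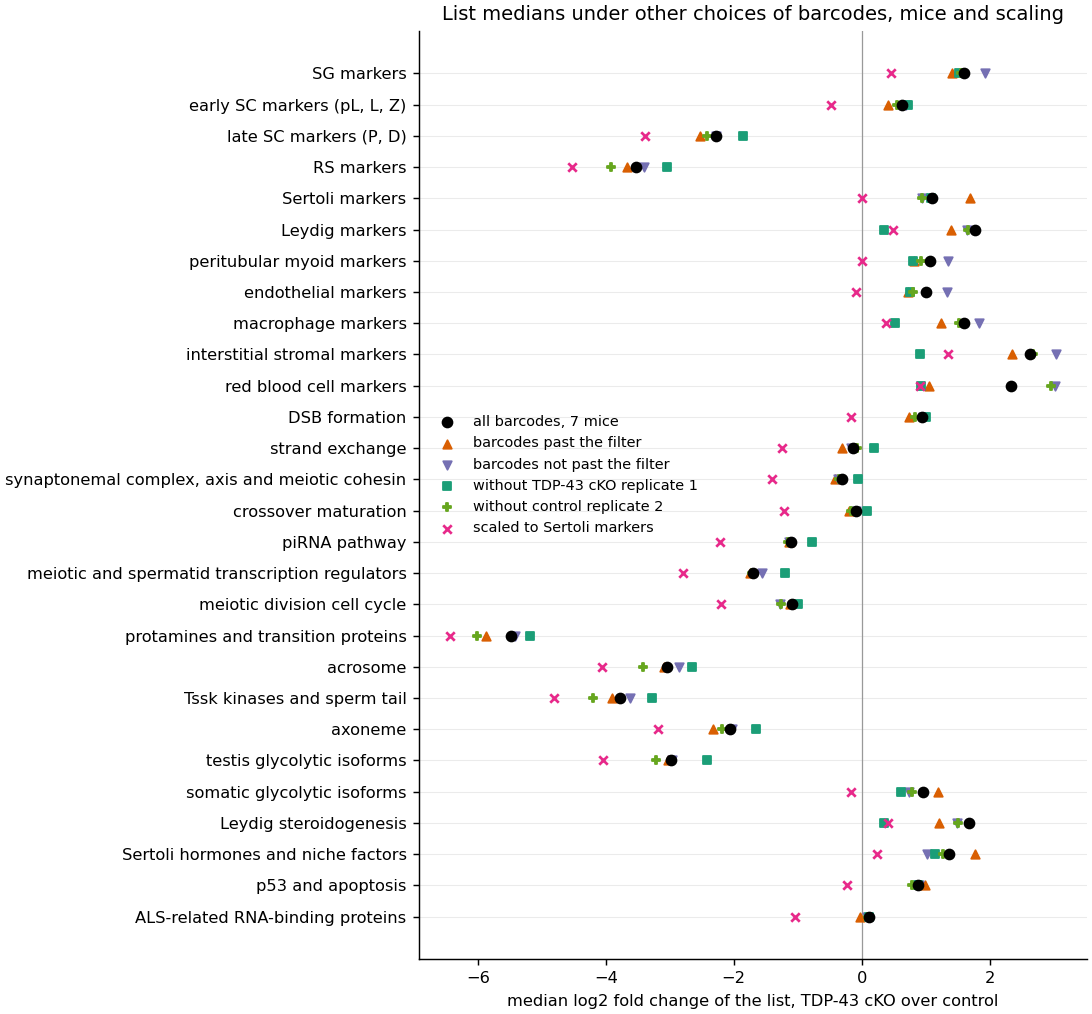
Each row is a gene list and each symbol its median log2 fold change of TDP-43 cKO over control (x axis) over all barcodes (black circle), in barcodes past or not past the filter (triangles), without TDP-43 cKO replicate 1 (square), without control replicate 2 (plus) or with Sertoli scaling (cross). The spermatid lists stay left of 0 under each of these, the Leydig, macrophage and stromal medians shrink towards 0 without TDP-43 cKO replicate 1, and with Sertoli scaling the medians of pL, L and Z markers, endothelial markers, DSB formation, somatic glycolytic isoforms, p53 and apoptosis and ALS-related genes turn negative.

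Compared directly with the 2 NELF-B cKO mice over all barcodes, no gene of 25540 differed at an adjusted p under 0.05 (edgeR, lowest adjusted p = 0.322), 3937 had an unadjusted p under 0.05, and DESeq2 called 834. The 2 NELF-B cKO mice differ widely, and against NELF-B cKO replicate 1 alone, which is then assumed to vary like the other mice, 8561 genes were called, while against NELF-B cKO replicate 2 alone 0 were called.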

How the data were processed

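Testes of 9 mice at PND24 gave 1 10x 3′ library each. The authors deposited raw UMI counts of all barcodes from Cell Ranger (7.0.0 in the labels, 4 in the matrix headers) with the mm10 reference of 10x Genomics. Counts of every barcode were summed per mouse, without removal of doublets or free RNA. Genes kept by filterByExpr were tested with TMM scaling and the quasi-likelihood test of edgeR 4.0.16 (R 4.3.3) over 4 control and 3 TDP-43 cKO mice, and called at a Benjamini-Hochberg adjusted p under 0.05. The mouse is the replicate. The script was tested on simulated data. Named were Tardbp, Spo11, Meiob, Spata22, Rad51c and Acrv1, the 10 genes with the largest change in each direction (called, no overlap, at least 10 CPM in the higher group) and the 3 most abundant members of each of 28 lists. Some members of the lists are counted but not reported here by name. The comparison and the lists were chosen with earlier results of these data known. Alternatives were RLE, library totals, Sertoli scaling, no filter, DESeq2 1.42.0, all 9 mice, barcodes past or not past the filter of the study, no mitochondrial genes, a replicate block and each mouse left out. Positions are from GENCODE and promoters from RefSeq (GRCm38.p6).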

Additional observations from a re-analysis of the deposited data

Results flagged for a closer look

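Of 128 groups of 4 control mice that were tested for a mouse far from the others, 7 held one. If the groups were independent, chance would flag about 1 in 20, or 6.4 of these. They are genes and gene lists measured in the same 4 mice, and some share genes. The number can therefore not be set against chance. In 6 of them it was control replicate 1. Its early SC markers summed to 1299.6 CPM, against 1797 to 1822 CPM in the other control mice. Sycp3 of the chromosome axis had 453 CPM, against 588 to 608 CPM in the other control mice. Sycp1 of the synaptonemal complex had 494 CPM, against 764 to 802 CPM in the other control mice. The acrosome gene Zpbp2 had 355 CPM, against 284 to 288 CPM in the other control mice. The RNA-binding protein gene Ewsr1 had 308 CPM, against 264 to 271 CPM in the other control mice. F13a1, a macrophage marker, had 8.06 CPM, against 3.04 to 3.89 CPM in the other control mice. In control replicate 2, the sperm head gene Ccin had 1.43 CPM, against 13.7 to 15.2 CPM in the other control mice. The same mouse had 3.22 CPM of Prm1, where the other control mice had 352 to 658 CPM.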

How the results depend on the processing

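Genes called lower numbered 8145 and ranged from 7183 to 8476 when each mouse was left out in turn, and genes called higher numbered 8630 and ranged from 6109 to 8151. Sertoli scaling gave 13086 lower and 199 higher, the thresholds of the study 4258 and 4104, and barcodes not past the filter 5084 higher. DESeq2 called 9177 lower and 8432 higher. The labels do not say whether mice of the same replicate number are paired. The deviations of same-numbered control and TDP-43 cKO mice had correlations of -0.23, -0.16 and -0.0069. Those of differently numbered mice ranged from -0.19 to 0.22, so these few values cannot decide it. With the replicate block 0 genes were called lower and 0 higher, and the log2 fold change of Tardbp was -0.95 (edgeR, adjusted p = 0.0537), against -0.96 without the block. The block fits further terms to the same few mice, so the loss of calls cannot decide it either. Leaving out each mouse gave -1.11 to -0.81 for Tardbp, library totals -0.70 and Sertoli scaling -2.06. For TDP-43 cKO against NELF-B cKO, DESeq2 called 834 genes and the fit without NELF-B cKO replicate 2 called 8561, with a range of 0 to 8561 over each mouse left out. The cause of these differences was not tested.

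Over the named genes, 56 of the log2 fold changes obtained under an alternative had the other sign. With Sertoli scaling these were Rad51c -1.03, Sycp1 -1.03, Rhox8 -0.0316, Amhr2 -0.48, Acta2 -0.0125, Tagln -0.0649, Vwf -0.11, Ptprb -0.0834, Mrc1 -0.15, Zcwpw1 -0.17, Brca2 -0.87, Aldoa -0.12, Cldn11 -0.0138, Hnrnpa2b1 -1.07 and Hnrnpa3 -1.01. With library totals they were Meiob 0.0931, Emc7 0.24, Ankrd31 0.14 and Hfm1 0.0743, with RLE Rad51c -0.00619, Sycp1 -0.0431 and Hnrnpa2b1 -0.0402, with DESeq2 Rad51c -0.00629, Sycp1 -0.0431 and Hnrnpa2b1 -0.0402, and over all 9 mice Sycp1 -0.0108. In barcodes past the filter they were Rad51c -0.041 and Sycp1 -0.14, in the others Meiob 0.0324, Emc7 0.0198 and Hnrnpa2b1 -0.0335, and with the replicate block Emc7 0.00335. With each mouse left out, the genes whose sign turned ranged over Ankrd31 -0.37 to 0.11, Cyp11a1 -0.22 to 1.87, Cyp17a1 -0.15 to 2.34, Emc7 -0.17 to 0.012, Hfm1 -0.42 to 0.13, Hnrnpa2b1 -0.10 to 0.11, Hnrnpa3 -0.019 to 0.13, Hormad1 -0.58 to 0.085, Meiob -0.43 to 0.22, Rad51c -0.067 to 0.26, Sycp1 -0.21 to 0.37 and Sycp3 -0.50 to 0.059. The number of mice, 4 and 3, limits the precision, and no exact test of 1 value over them can give a p under 0.0571.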

Other observations

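Retrogenes of the testis are autosomal copies of X-linked genes that are read while the X is silent in meiosis. In 7 such pairs, chosen after the X-linked genes were seen to rise, all 7 X-linked parents rose and 6 of 7 autosomal copies fell, against 67.3% of X-linked genes called higher and 33.3% of autosomal genes called lower. The pairs were picked for this pattern, so the counts support nothing. The parents Pgk1, Pdha1, Rpl10, Cetn2, Cstf2, Utp14a and Rbmx had log2 fold changes of 1.33, 1.79, 2.06, 1.48, 0.62, 0.72 and 1.47 (highest adjusted p = 0.00667, edgeR), and with Sertoli scaling Cstf2 and Utp14a turned to -0.49 and -0.40. The copies Pgk2, Pdha2, Rpl10l, Cetn1, Cstf2t, Utp14b and Rbmxl2 had -3.08, -2.04, -1.45, -2.98, -0.52, 0.28 and -0.79, and Utp14b was the copy that was not called (edgeR, adjusted p = 0.166), and -0.87 with Sertoli scaling. Rpl10, a ribosomal protein gene, had 83.0, 86.0, 78.6 and 71.3 CPM in the control mice and 584, 204 and 209.8 CPM in the TDP-43 cKO mice, and its copy Rpl10l had 132, 109, 129.7 and 128 and 19.7, 65.2 and 51.6 CPM. The groups did not overlap in either.

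As a description by gene class, of 3329 lincRNA genes, 52.6% fell and 17.2% rose (median log2 fold change -1.41), of 2211 antisense genes 46.0% fell and 18.2% rose, and of 18166 protein-coding genes 27.5% fell and 40.6% rose (median 0.29). Among protein-coding genes in 5 equal groups by genomic span, 35.6% fell and 37.0% rose in the shortest (median span 3.93 kb), and 19.4% and 47.0% in the longest (median span 126 kb). These shares are descriptions with no test.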
